A study of Homo sapiens with 6 samples.

Results

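Metallothioneins and the genes that answer to zinc were followed in T47D cells, a luminal-like human breast cancer line, by RNA sequencing in normoxia and hypoxia. The 9 genes were chosen by name: the metallothioneins MT1A, MT1E, MT1F, MT1G, MT1M, MT1X and MT2A, the zinc sensor MTF1 and the zinc exporter SLC30A1. All 9 are among the 27754 genes of the count tables, and 5 of them (MT2A, MT1X, MT1F, MTF1 and SLC30A1) held enough counts to be tested. Normoxia controls were kept in 20% O2, with no time given in their labels, though the text of the study gives 48 h for both conditions. Hypoxic cells were kept for 48 h in a chamber at 0.5% O2 by their labels, whereas the text of the study gives another hypoxic oxygen level. Each condition had 3 libraries, numbered 1 to 3. Both groups were the same parental line, grown attached in RPMI with 10% FBS, and the labels give no further treatment. Nothing in the labels says that the replicates were separate cultures. The study's figure legend describes its data as independent experiments, and its methods call the hypoxic and normoxic samples paired. The p-values below measure the spread between these libraries, which may be in part technical.

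Metallothioneins are very small, cysteine-rich proteins that bind zinc, copper and cadmium ions and buffer the free zinc of the cell. When free zinc rises, the zinc finger protein MTF1 binds metal response elements upstream of the metallothionein genes and of SLC30A1, which pumps zinc out of the cytosol. Metallothionein genes are also known to answer to glucocorticoids, oxidative stress and low oxygen, and in breast tissue the proteins are known from myoepithelial cells.

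The libraries held 32989104 to 40943424 counts, except hypoxia replicate 3, which held 89883409. Levels are given as CPM, the normalised counts of a gene for every 1000000 counts of a library, and a count of 0 allowed a level of up to 0.0328 to 0.0969 CPM (3 counts in each library, counting error only). The hypoxic labels were matched by 8 of 8 genes chosen as hypoxia markers, which rose by a median of 3.53 on the log2 scale, among them CA9, a carbonic anhydrase, from 0.61 ± 0.38 to 24.7 ± 5.92 CPM (SD, n = 3). The 9 luminal markers were all tested, of which 1 rose and 4 fell in hypoxia (1 and 6 with the replicate block). Among all 15657 tested genes, 30.4% rose and 29.1% fell (36.6% and 35.2% with the block), the shares to set beside both marker lists. The estrogen receptor gene ESR1 lay at 271 ± 26.3 CPM in normoxia against 74.6 ± 0.598 CPM in hypoxia, and the leucocyte gene PTPRC stayed at or below 0.0988 CPM. The replicate 3 libraries stood apart from the others in both conditions, and the fold changes of MT2A, MT1X, MT1F and SLC30A1 below are therefore also given without hypoxia replicate 3 or without both libraries numbered 3.

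The 7 metallothionein genes lie in 1 cluster on chromosome 16 (GRCh37, as in the count tables), from MT2A at chr16:56642478-56643409 to MT1X at chr16:56716382-56718108. MT1G alone lies on the minus strand. MTF1 (chr1:38275239-38325292) and SLC30A1 (chr1:211748381-211752099) are both on the minus strand of chromosome 1. None of the 9 shares exon bases with another gene of the count tables. The metallothionein exons add up to only 396 to 506 bases, against 2018 for SLC30A1 and 7972 for MTF1. The coding sequences of MT2A, of MT1X and of MT1E are shown because these are, in turn, the most abundant of the 7, the one that passed the test, and one that was seen in replicate 3 libraries only. The reading frames run 5′ to 3′ on the plus strand (GRCh37, GENCODE v44lift37) and span chr16:56642568-56643266, chr16:56716453-56717961 and chr16:56659764-56660883, introns left out, with the codons for cysteine (TGC or TGT) in capitals.
MT2A: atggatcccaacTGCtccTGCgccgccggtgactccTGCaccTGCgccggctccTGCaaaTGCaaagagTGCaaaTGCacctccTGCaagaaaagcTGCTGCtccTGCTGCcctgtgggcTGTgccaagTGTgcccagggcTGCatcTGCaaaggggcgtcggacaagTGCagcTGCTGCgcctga
MT1X: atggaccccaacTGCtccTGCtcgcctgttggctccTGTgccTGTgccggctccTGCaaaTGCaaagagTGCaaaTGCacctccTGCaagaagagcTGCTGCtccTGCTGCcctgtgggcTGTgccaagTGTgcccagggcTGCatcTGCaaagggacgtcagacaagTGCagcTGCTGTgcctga
MT1E: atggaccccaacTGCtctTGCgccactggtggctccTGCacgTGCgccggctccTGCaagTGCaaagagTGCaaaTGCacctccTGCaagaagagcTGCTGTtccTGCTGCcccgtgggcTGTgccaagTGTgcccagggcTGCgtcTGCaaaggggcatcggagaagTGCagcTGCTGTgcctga

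Each of the 7 frames holds 20 cysteine codons among 61 codons, or among 62 in MT1G. Any pair of the 7 was identical at 88.7 to 94.6% of aligned coding bases, and MT1X and MT2A at 92.5%. Reads of near-identical paralogues can be dropped or given to the wrong gene, and how reads with several matches were counted is not given in the sources used here. Of all 50-base windows of its exons, MT1X had 20.3% with an exact copy elsewhere in the genome, mostly in MT1G, MT1A or MT2A. The share was 20.2% for MT1G, 17.9% for MT1M, 10.5% for MT2A, 7.66% for MT1E (mostly in the pseudogene MT1JP), 5.76% for MT1A and 0.23% for MT1F. Of 100-base windows, none of the 7 had an exact copy. SLC30A1 had no copied window at either length, and MTF1 had 1.39% at 50 bases and 0.229% at 100. MT1F thus had an almost unique sequence among the metallothioneins, and MT1X and MT2A did not.

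The RefSeq promoter table (GRCh38.p14) held MT2A, MT1X, MTF1 and SLC30A1, 4 of the 9 genes. The 250 bases before the gene start are shown for both metallothioneins, since these genes moved together below and since MTF1 is known to bind there. Capitals mark the core of the metal response element, TGCACNC or TGCGCNC, on either strand, at chr16:56608334-56608583 for MT2A and chr16:56682220-56682469 for MT1X, both on the plus strand.
MT2A promoter: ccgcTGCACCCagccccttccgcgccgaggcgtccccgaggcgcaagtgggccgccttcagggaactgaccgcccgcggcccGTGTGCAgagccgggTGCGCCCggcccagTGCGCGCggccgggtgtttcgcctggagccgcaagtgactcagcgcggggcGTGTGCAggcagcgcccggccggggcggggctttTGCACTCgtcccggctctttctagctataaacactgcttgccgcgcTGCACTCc
MT1X promoter: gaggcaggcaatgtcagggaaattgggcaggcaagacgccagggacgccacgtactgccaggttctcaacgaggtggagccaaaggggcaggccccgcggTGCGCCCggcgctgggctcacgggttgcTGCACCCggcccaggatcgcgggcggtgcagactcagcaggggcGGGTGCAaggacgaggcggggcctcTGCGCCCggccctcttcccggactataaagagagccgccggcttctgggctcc

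MT2A held 7 matches (5 of TGCACNC and 2 of TGCGCNC) and MT1X held 4 (2 of each). SLC30A1 held 1, and MTF1 held 0. Among all 27305 windows of this length, 24.7% held at least 1 such match, 0.366% at least 4 and 0.121% at least 5. The core of the hypoxia response element was searched as ACGTG and GCGTG, also on both strands. MT1X held 1 ACGTG, MT2A 1 GCGTG, MTF1 2 GCGTG and SLC30A1 3 GCGTG, where 18.7% of all windows held ACGTG and 31.9% held GCGTG. These matches are letters in a window and do not show that a factor was bound.

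**Figure D1:**
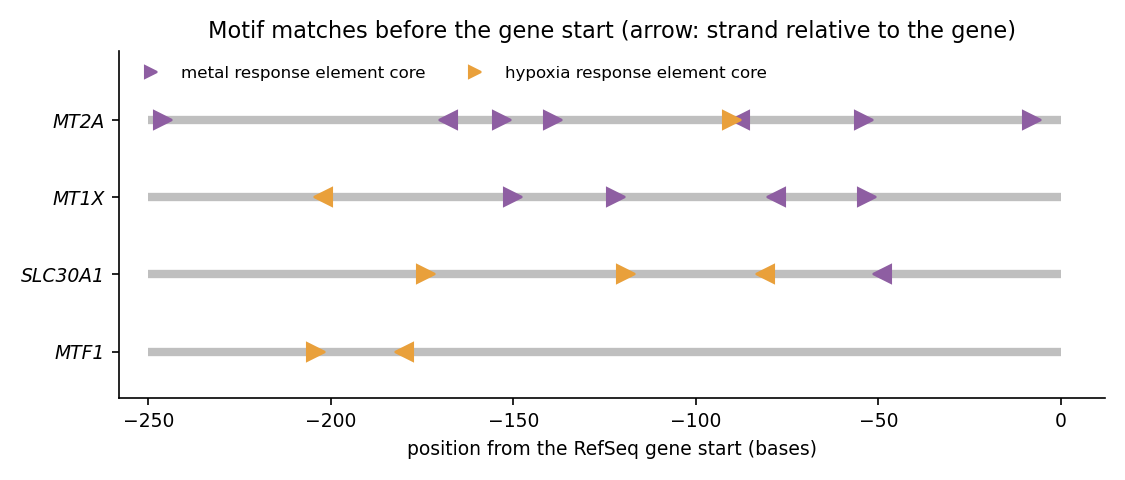
Matches to the metal response element core (purple) and the hypoxia response element core (orange) by their distance in bases before the RefSeq gene start, with arrows for the strand relative to the gene. MT2A holds 7 metal response element cores and MT1X 4, against 1 in SLC30A1 and 0 in MTF1.

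MT2A, the most abundant metallothionein, was measured at 1121, 1456 and 1746 counts in normoxia replicates 1, 2 and 3 and at 1823, 1993 and 14803 counts in hypoxia. After normalisation these were 28.4, 39.1 and 56.4 CPM in normoxia and 45, 54.5 and 162 CPM in hypoxia. Each hypoxic library stood above its same-numbered control, by 1.59-, 1.39- and 2.87-fold, yet the groups overlapped, because normoxia replicate 3 exceeded hypoxia replicates 1 and 2. MT2A averaged 41.3 ± 14.1 CPM in normoxia and 87.1 ± 64.9 CPM in hypoxia (SD, n = 3). This log2-fold change of 1.08 ± 0.48 (SE) did not pass in edgeR's quasi-likelihood test (adjusted p = 0.0837). With the replicate number as a block, MT2A rose by 0.90 ± 0.18 on the log2 scale (adjusted p = 0.00201). Without hypoxia replicate 3 the difference was 0.27 (adjusted p = 0.391), and without both replicate 3 libraries MT2A rose by 0.57 (adjusted p = 0.000841). Without hypoxia replicate 1 it rose by 1.39 (adjusted p = 0.0391). The size of the MT2A difference therefore rested largely on 1 library, while its direction was shared by 3 of 3 pairs.

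MT1X, a metallothionein of the same cluster, was lower in level and larger in change. It was counted 86, 114 and 185 times in normoxia and 178, 267 and 2320 times in hypoxia, or 2.18, 3.06 and 5.97 CPM against 4.4, 7.3 and 25.4 CPM. Here too every hypoxic library exceeded its own control (2.02-, 2.38- and 4.25-fold), and the groups overlapped only in that normoxia replicate 3 stood above hypoxia replicate 1. MT1X rose from 3.74 ± 1.99 to 12.4 ± 11.4 CPM (SD, n = 3), by 1.76 ± 0.66 on the log2 scale (adjusted p = 0.0482). It was 1 of 5 tested members called higher, where 30.4% of all 15657 tested genes were called higher, and 0 of 5 were called lower, where 29.1% of all tested genes were. With the replicate block it rose by 1.52 ± 0.20 (adjusted p = 0.00026). Without hypoxia replicate 3 the log2-fold change was 0.65 (adjusted p = 0.214), and the call was also lost without normoxia replicate 1 (1.46, adjusted p = 0.137) or normoxia replicate 2 (1.61, adjusted p = 0.121), and without both libraries numbered 2 (1.89, adjusted p = 0.0998). Without both replicate 3 libraries MT1X rose by 1.16 (adjusted p = 0.000511).

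MT1F, the metallothionein with the least copied exons, showed the smallest difference of the 3 tested metallothioneins. Its counts were 46, 74 and 84 in normoxia and 72, 77 and 438 in hypoxia, which is 1.17, 1.99 and 2.71 CPM against 1.78, 2.1 and 4.79 CPM. The hypoxic library was higher by 1.53-, 1.06- and 1.77-fold in the 3 pairs, and the groups overlapped. The log2-fold change of 0.60 ± 0.44 did not pass (adjusted p = 0.268), whereas with the block MT1F rose by 0.52 ± 0.20 (adjusted p = 0.0421). Without hypoxia replicate 3 the value was -0.0044 (adjusted p = 0.992), and without both replicate 3 libraries 0.31 (adjusted p = 0.304). With the block, 3 of 5 tested members were thus called higher, where 36.6% of all tested genes were, and 0 of 5 lower, where 35.2% were. In these bulk libraries, a change in the number of cells that express a gene and a change in RNA per cell cannot be told apart.

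**Figure D2:**
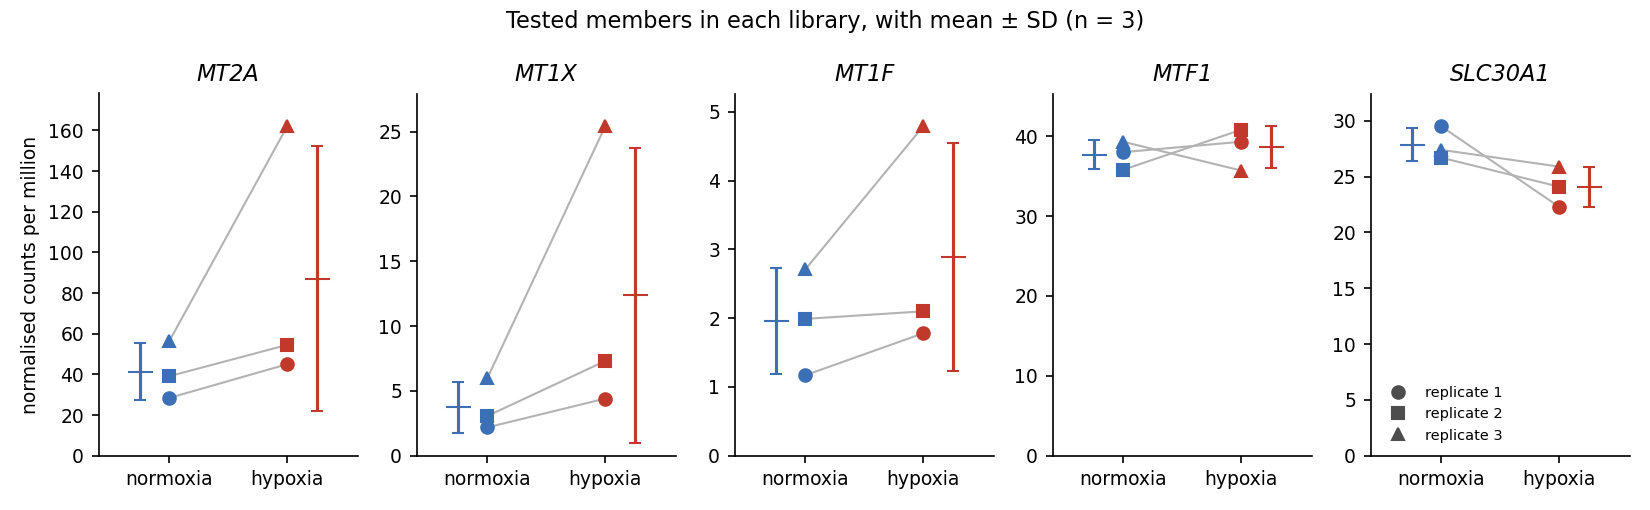
Normalised level (CPM) of the 5 tested genes in each library, with lines joining libraries of the same replicate number and horizontal marks with bars for the mean ± SD (n = 3). MT2A, MT1X and MT1F rise along all 3 lines and reach 162, 25.4 and 4.79 in hypoxia replicate 3, whereas MTF1 has no common direction and SLC30A1 falls along all 3.

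**Figure D3:**
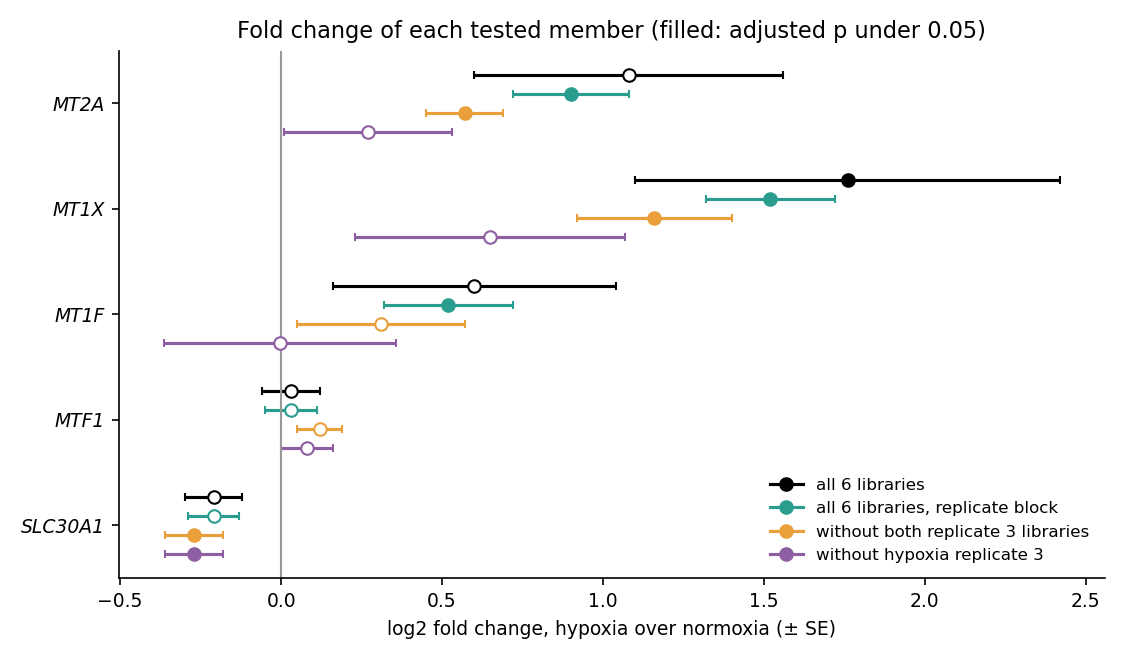
Log2-fold change of hypoxia over normoxia ± SE for each tested gene under 4 settings, filled where the adjusted p is under 0.05. The values of MT2A, MT1X and MT1F shrink to 0.27, 0.65 and -0.0044 without hypoxia replicate 3, a setting that keeps normoxia replicate 3, also high for these genes. Without both replicate 3 libraries they are 0.57, 1.16 and 0.31. The values of SLC30A1 lie between -0.21 and -0.27 under the 4 settings.

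Since reads may move between paralogues, the counts of the 7 metallothioneins were also added up. The sum was 31.8, 44.3 and 65.5 CPM in normoxia and 51.3, 64.2 and 193 CPM in hypoxia, with means of 47.2 ± 17 and 103 ± 78.4 CPM (SD, n = 3). Within pairs the hypoxic sum was 1.61-, 1.45- and 2.95-fold that of its control, and the ratio of the means was 2.18, or 1.52 without replicate 3. The log2 ratio of 1.12 compares with an SD of 0.81 within a condition, and no p is given for the sum. Added up as a single feature within the fit, it gave 1.13, or 0.94 with the replicate block. The log2 ratio was 0.29 without hypoxia replicate 3.

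The make-up of the metallothionein counts was compared next. MT2A gave 83.9 to 89.3% of all metallothionein counts in every library. MT1X gave 6.85% (exact 95% binomial interval 5.51 to 8.39), 6.91% (5.73 to 8.24) and 9.13% (7.91 to 10.5) in normoxia, and 8.57% (7.40 to 9.86), 11.4% (10.1 to 12.7) and 13.1% (12.7 to 13.7) in hypoxia. These intervals cover counting error only and leave out the spread between libraries. The MT1X share was higher in hypoxia in each of the 3 pairs, although the groups overlapped. For every 100 MT2A counts there were 7.67, 7.83 and 10.6 MT1X counts in normoxia and 9.76, 13.4 and 15.7 in hypoxia. MT1F moved the other way, from 4.1, 5.08 and 4.81 to 3.95, 3.86 and 2.96 for every 100 MT2A counts. All hypoxic values lay below all normoxic ones, but by little between 4.1 and 3.95, which rest on 46 and 72 MT1F counts. No interval was computed for MT1F, which had at most 84 counts in each library other than hypoxia replicate 3. The MT1X and MT1F ratios lie within a library and do not depend on its depth or scaling.

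The other 4 metallothioneins were at or near the limit of detection and were too low to be tested. MT1M was counted 3, 6 and 4 times in normoxia and 3, 11 and 60 times in hypoxia, or 0.076, 0.161 and 0.129 CPM against 0.0741, 0.301 and 0.656 CPM. Its hypoxic level was thus about that of its control in the first pair and 5.08-fold higher in the third. With the filter off, its log2-fold change was 1.59 ± 0.70 (adjusted p = 0.0879). MT1E was counted 8 times in normoxia replicate 3 and 24 times in hypoxia replicate 3, and 0 times in the other 4 libraries. Its levels in those libraries were 0.258 and 0.262 CPM, so that MT1E separated replicate 3 from replicates 1 and 2 and did not separate the conditions. MT1G had 1 count in hypoxia replicate 2 and 0 elsewhere, and MT1A had 0 in all 6 libraries. Of 9 other genes and pseudogenes of the family in the tables, 7 were at 0 throughout, MT3 had 1 count in each of hypoxia replicates 1 and 3, and the pseudogene MT1DP had 5, 7 and 2 counts in normoxia and 5, 6 and 17 in hypoxia.

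MT1E was not alone in marking replicate 3. VIM (vimentin, an intermediate filament of mesenchymal cells) reached 12.8 CPM in normoxia replicate 3, against 0.177 and 0.322 in replicates 1 and 2, and 10.9 CPM in hypoxia replicate 3, against 0.864 and 0.956. CAV2, a caveolin, had 0 counts in the same 4 libraries as MT1E and lay at 0.42 and 0.437 CPM in the replicate 3 libraries. Of 12 mesenchymal-like or basal-like markers, 7 were highest in replicate 3 of both conditions (ANXA1, CAV1, CAV2, GSTP1, MSN, SPARC and VIM). AXL, ZEB1, KRT5, KRT14 and TP63 were not, and TP63 was lowest in both replicate 3 libraries (1.07 and 1.38 CPM). Among the 7 metallothioneins, 4 were highest in both replicate 3 libraries (MT2A, MT1X, MT1F and MT1E). The 12 markers summed to 5.93, 7.84 and 26.4 CPM in normoxia and 42.8, 42.6 and 63.9 CPM in hypoxia. A few genes made up most of these sums. In hypoxia they were ANXA1 (26.9, 21.9 and 31.1 CPM) and AXL (11.5, 15.9 and 13.4 CPM), and VIM gave 12.8 of the 26.4 CPM in normoxia replicate 3. Of 9 luminal markers, 3 keratins (KRT8, KRT18 and KRT19) were highest in both replicate 3 libraries too. The share of all genes that were highest in both was not counted, so these counts show no link between the metallothioneins and any marker list. The part of other cells in the metallothionein levels was not tested.

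**Figure D4:**
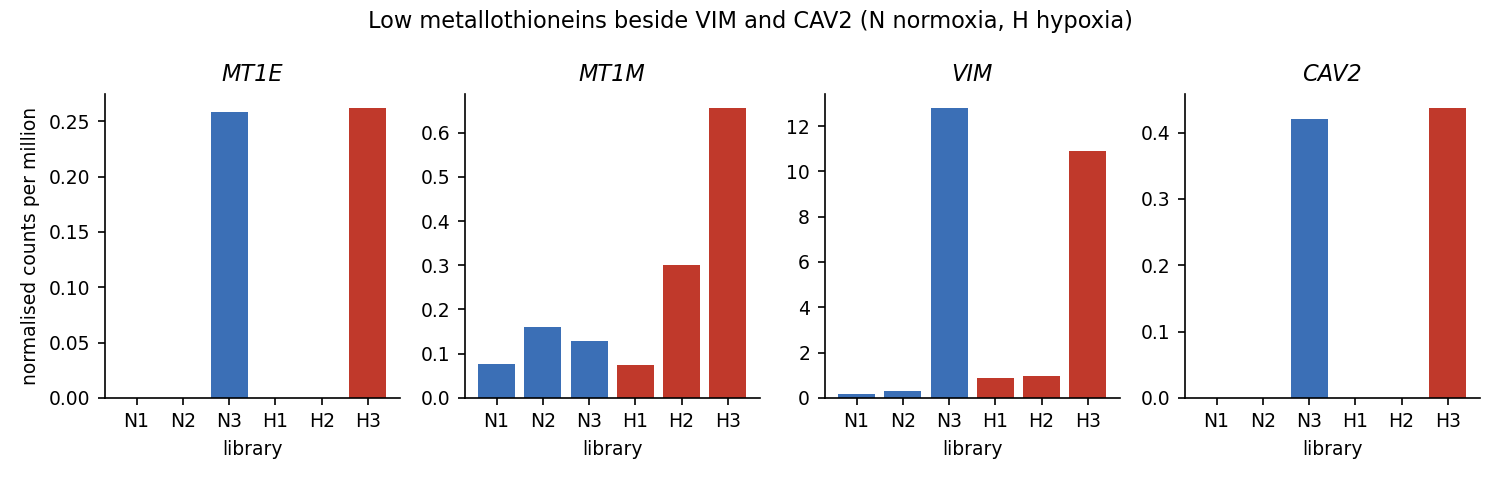
Normalised level (CPM) of MT1E, MT1M, VIM and CAV2 in normoxia (N) and hypoxia (H) replicates 1 to 3. MT1E and CAV2 are above 0 only in the replicate 3 libraries, where VIM reaches 12.8 and 10.9, and MT1M is highest in hypoxia replicate 3 at 0.656.

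The metallothioneins were among the genes that most set hypoxia replicate 3 apart. The comparison took the 12664 genes whose counts averaged 100 or more. MT1X stood 2.12 higher there on the log2 scale than in the mean of hypoxia replicates 1 and 2, and 7 genes exceeded it. MT2A stood 1.70 higher (16 genes exceeded it) and MT1F 1.30 higher (33 genes). The same genes were also raised in normoxia replicate 3, by 1.19 for MT1X (44 genes higher), 0.74 for MT2A (152) and 0.78 for MT1F (126). MTF1 and SLC30A1 were not set apart in this way, with values of -0.16 and 0.16 in hypoxia. Replicate 3 therefore carried high metallothionein in both conditions, and more so in hypoxia.

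Several measured properties were set beside this. The 150 other genes of up to 600 counted bases had a median ratio of 1.07 in hypoxia replicate 3, against 1.02 for all genes. Genes with at least 50% of their exon bases shared with another gene on the same strand differed at least 2-fold (1 on the log2 scale, either way) in hypoxia replicate 3 in 10.3% of 78 cases, against 0.95% of the 9788 genes that share none. The metallothioneins share none, and among those 9788 genes only 4 exceeded MT1X and 11 exceeded MT2A. Among all 12664 genes compared, those above MT2A included SIGLEC6, ATP5E, VIM, KRT3 and CYP1A1, named after their values were seen. Of these, ATP5E shared 66.3% of its exon bases on the same strand and VIM 30% on the opposite strand. Neither the depth of hypoxia replicate 3 nor the handling of its reads was tested as a source of its metallothionein level.

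**Figure D5:**
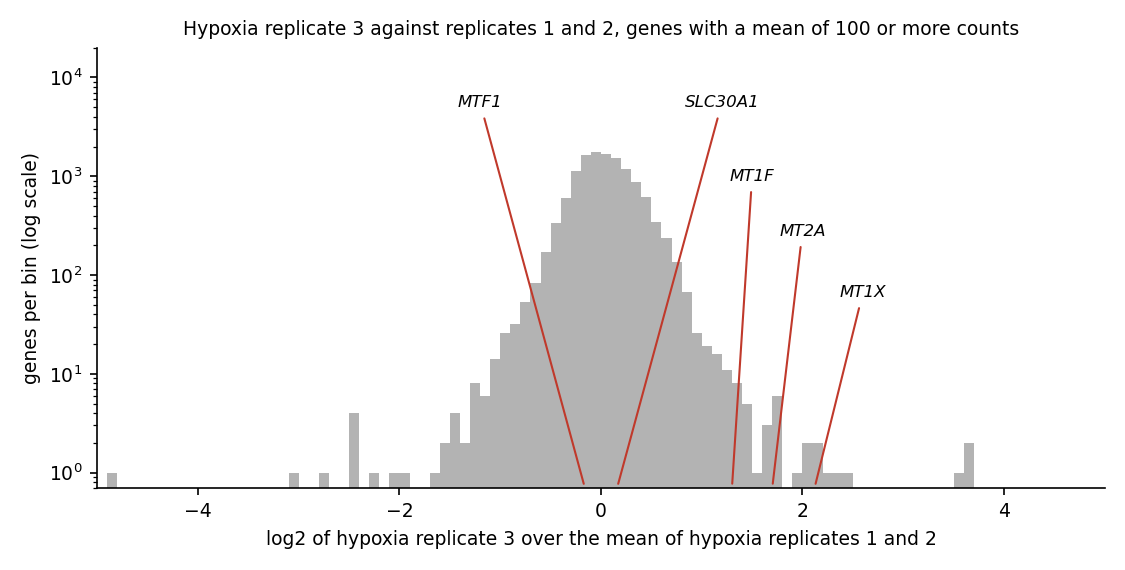
Histogram of 12664 genes by the log2 ratio of hypoxia replicate 3 over the mean of hypoxia replicates 1 and 2, with genes per bin on a log axis. MT1F, MT2A and MT1X lie in the right tail at 1.30, 1.70 and 2.12, and MTF1 and SLC30A1 lie near the centre at -0.16 and 0.16.

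MTF1, the zinc-sensing activator of metallothionein genes, showed no common direction across the pairs. Its normoxic levels were 38, 35.8 and 39.3 CPM and its hypoxic levels 39.3, 40.8 and 35.7 CPM, and the groups overlapped. It averaged 37.7 ± 1.78 CPM in normoxia and 38.6 ± 2.61 CPM in hypoxia (SD, n = 3), and its log2-fold change was 0.03 ± 0.09 (adjusted p = 0.744). PGF, a placental growth factor gene for which MTF1 is a known activator in hypoxia, rose from 0.269 ± 0.108 to 7.12 ± 0.862 CPM. This is 4.75 ± 0.27 on the log2 scale (adjusted p = 3.9e-05). With 7, 9 and 12 counts in normoxia, PGF passed the filter on low counts only through its hypoxic libraries. Whether MTF1 took part in the rise of PGF was not tested. MTF1 acts through its protein, which mRNA counts do not show.

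SLC30A1, the plasma membrane zinc exporter and a known MTF1 target, was lower in hypoxia in every pair. Its normoxic levels were 29.5, 26.7 and 27.4 CPM and its hypoxic levels 22.3, 24.1 and 25.9 CPM, and the groups did not overlap. It averaged 27.9 ± 1.48 CPM in normoxia and 24.1 ± 1.83 CPM in hypoxia (SD, n = 3), and the log2-fold change of -0.21 ± 0.09 did not pass (adjusted p = 0.0871, or 0.0504 with the block). Without hypoxia replicate 3, SLC30A1 fell by 0.27 on the log2 scale (adjusted p = 0.0381). It also fell without both replicate 3 libraries, by 0.27 (adjusted p = 0.0132). The size of the difference depended on the scaling and the libraries, at -0.05 with upper-quartile factors (adjusted p = 0.652), -0.09 with total counts only (adjusted p = 0.397) and -0.11 without both libraries numbered 1 (adjusted p = 0.605).

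Levels of different genes were compared as CPM per kilobase of counted exon. In normoxia the order of these levels was MT2A (98.6 ± 33.7), SLC30A1 (13.8 ± 0.734), MT1X (9.25 ± 4.92), MTF1 (4.73 ± 0.223), MT1F (4.05 ± 1.6), MT1M (0.278) and MT1E (0.17). MT2A was far above every other member in each library, but SLC30A1 and MT1X overlapped across the 3 libraries, as did MTF1 and MT1F. In hypoxia the per-kilobase means were 208 ± 155 for MT2A, 30.6 ± 28.1 for MT1X, 12 ± 0.909 for SLC30A1, 5.99 ± 3.42 for MT1F and 4.85 ± 0.328 for MTF1. MT1X and SLC30A1 overlapped again, since MT1X ranged from 10.9 to 62.8. Without hypoxia replicate 3 the hypoxic means were 119 for MT2A, 14.5 for MT1X, 11.5 for SLC30A1, 5.03 for MTF1 and 4.02 for MT1F, so that the place of MT1F above MTF1 rested on that library. In normoxia the MT2A level was 20.9 times that of MTF1 per kilobase.

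Genes of zinc and copper handling outside these 9 were read from the same fit, in which 30.4% of all tested genes rose and 29.1% fell. Of 9 other zinc exporters of the SLC30A family, 6 were tested, 1 rose and 2 fell, with a median log2-fold change of -0.13 where that of all tested genes was 0.03. The 1 called higher was SLC30A3, a vesicular zinc transporter, from 5, 2 and 1 counts to 20, 17 and 64 counts, a low gene that passed the filter on low counts only through its hypoxic libraries (log2-fold change 2.90 ± 0.47, adjusted p = 0.00138). SLC30A5, which loads zinc into the secretory pathway, fell by 0.36 (adjusted p = 0.00493). With the block, and also without both replicate 3 libraries, 2 rose and 3 fell.

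Of 14 zinc importers of the SLC39A family, 12 were tested, 1 rose and 4 fell, with a median of -0.18. The 1 that rose was SLC39A14, a plasma membrane importer of zinc, iron and manganese, by 0.35 ± 0.11 (adjusted p = 0.0247), from 43.3 ± 4.57 to 55 ± 4.94 CPM. The largest fall was that of SLC39A3, by 1.01 ± 0.28 (adjusted p = 0.0147), from 32.7 ± 9.77 to 16.1 ± 5.70 CPM. With the block 3 rose and 7 fell, and without both replicate 3 libraries 3 rose and 6 fell. Of 12 genes of copper handling, 1 rose and 7 fell, with a median of -0.32. The largest falls among them were those of SCO2 (-1.35 ± 0.18, adjusted p = 0.00056) and COX17 (-1.10 ± 0.12, adjusted p = 0.000227), which deliver copper to cytochrome c oxidase.

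The genes most like MT2A were sought by the Euclidean distance between centred log2 CPM over the 6 libraries, among 12660 genes that averaged 100 counts or more. ANKRD2 was the nearest (0.511), followed by MT1F (0.627), CCM2L (0.704), SCNM1 (0.778), S100A2 (0.78) and KRT4 (0.837). MT1X lay at 0.905, with 10 genes closer, whereas MTF1 and SLC30A1 lay at 1.97 and 2, with 5310 and 5783 genes closer. KRT4, a keratin of stratified epithelium, had 8.33, 7.6 and 13.6 CPM in the normoxic and 16.5, 19.8 and 57.2 CPM in the hypoxic libraries. All 5 non-member genes named here were highest in replicate 3 of both conditions, so that the likeness follows both the condition and the replicate number, and over 6 libraries it is a description only.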

How the data were processed

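The authors trimmed reads from stranded mRNA libraries with Skewer, aligned them with STAR to GRCh37/hg19 and used featureCounts with RefSeq genes for the counts. The submitters' processing notes name FastQC 0.11.5, STAR 2.5.2a and featureCounts 1.5.1. The strand option and the handling of multi-mapped reads are not given in the sources used here, and the labels and the methods name different RNA extraction kits. The deposited files hold raw counts per gene, without normalization, and the counted exon length in bases, another deposited column used only for levels per kilobase and the length correction.

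Counts were analysed in R 4.3.3 with edgeR 4.0.16 (DESeq2 1.42.0 as an alternative). Of 27754 genes, 15657 passed filterByExpr (minimum count 10, minimum total 15) and were fitted together with TMM factors, the quasi-likelihood test for condition with no other covariate, and a Benjamini-Hochberg threshold of 0.05. The study's methods name edgeR's exact test, run as an alternative. The fit was tested on simulated data that held no replicate effect, unlike these libraries, so that test does not bear on the replicate 3 libraries. CPM values are TMM-normalised. Python 3.11.15 with matplotlib 3.10.9 made the figures. Replicates of a condition differed by more than sampling noise (chi-square per degree of freedom of 6.38 to 72.6), so none was merged.

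The replicate numbers come from the labels. Same-numbered libraries departed from their condition means together (correlations of 0.489, 0.543 and 0.643 across 12665 genes). Since both replicate 3 libraries stood apart, replicates 1 and 2 would tend to depart together however they were matched. These correlations therefore cannot decide the pairing of replicates 1 and 2. The study's methods call the samples paired, and the numbers were taken as pairs. Fits with the replicate number as a block are given where they changed a call. The common biological coefficient of variation was 0.141 without the block and 0.0751 with it.

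All 9 members are described. From each related list, genes past the threshold with a log2-fold change of at least 1 either way were named, as were the SLC30A and SLC39A genes with the largest change each way and the 5 genes nearest to MT2A. A gene of a related list that met this rule is not reported here. Genes named from the replicate 3 comparison were chosen after their values were seen. Members and lists were chosen with earlier results of these data known. Exact copies of exon windows were searched in the GRCh37 sequence, and promoters were taken from RefSeq. Alternatives covered the test, normalization, low-count filter, replicate block, each library left out and, added after the data were seen, a correction for length and GC content.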

Additional observations from a re-analysis of the deposited data

How the results depend on the processing

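The number of members called higher (1) and lower (0) depended on the setting. DESeq2 called 0 higher and 0 lower, with MT1X at 1.71 on the log2 scale (adjusted p = 0.064). The exact test and upper-quartile factors each called 2 higher, because MT2A joined MT1X (adjusted p = 0.0411 and 0.0475). The replicate block called 3 higher, as did the block together with the length and GC correction, which also called 1 lower (SLC30A1, adjusted p = 0.0436), while that correction alone called 2 higher. The pairing changed no other call among the members. Upper-quartile factors moved the median log2-fold change of all tested genes by 0.16 and total counts only by 0.12. With libraries left out, 0 to 3 members were called higher (the 3 include MT1M, called at an adjusted p of 0.0205 without hypoxia replicate 1, when it passed the filter only through its hypoxic libraries, and not called in 4 other such fits, at 0.07 to 0.237) and 0 to 1 lower. The log2-fold change then ranged from 0.27 to 1.39 for MT2A, from 0.65 to 2.26 for MT1X and from -0.0044 to 0.91 for MT1F.

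MTF1 had no stable sign. Its log2-fold change was -0.02 without normoxia replicate 2, -0.01 without hypoxia replicate 2, -0.05 without replicate 2 (0.12 without replicate 3) and -0.20 with the length and GC correction, with the replicate block or without it (adjusted p = 0.054 and 0.0815), and the cause was not tested.

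The log2 ratio of the summed metallothioneins ranged from 0.29 (without hypoxia replicate 3) to 1.44 with libraries left out, and was 0.93 as a mean over the pairs. The ratio of MT2A to MTF1 in normoxia was 20.9 per kilobase and 1.1 with no length taken into account. MT1M, MT1E and MT1G, with at most 60 counts in any library, are limited by depth. The share of paralogue reads counted for the wrong gene could not be measured from gene counts.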

Other observations

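Other known regulators of metallothioneins were followed through lists of their targets or response genes, in the fit in which 30.4% of all tested genes rose and 29.1% fell. Of 10 targets of NRF2, the oxidative stress factor, 2 rose and 4 fell, with a median log2-fold change of -0.28 where that of all tested genes was 0.03. SLC7A11, the cystine importer, rose from 8.37 ± 1.29 to 24.3 ± 4.21 CPM (SD, n = 3), by 1.54 ± 0.17 on the log2 scale (adjusted p = 0.000241). NQO1, a quinone reductase, fell by 1.28 ± 0.11 (adjusted p = 9.89e-05), from 442 ± 43.6 to 182 ± 18.8 CPM. With the replicate block, and also without both replicate 3 libraries, 2 rose and 6 fell.

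Of 7 tested genes of the glucocorticoid response, 2 rose and 2 fell, with a median log2-fold change of -0.14, shares close to those of all tested genes. This list is not one of targets only, since it holds the receptor gene NR3C1, 1 of the 2 that rose (0.67 ± 0.11, adjusted p = 0.00128). The counts were also 2 and 2 with the block, and 3 and 3 without both replicate 3 libraries. TSC22D3, a leucine zipper gene induced by glucocorticoids, rose by 1.12 ± 0.14 (adjusted p = 0.000447), whereas SGK1, a kinase gene of the same response, fell by 2.32 ± 0.44 (adjusted p = 0.00269). SGK1 was low, at 65, 104 and 27 counts in normoxia and 17, 12 and 30 counts in hypoxia.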
